A study of Mus musculus with 8 samples.

Results

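Ribosome biogenesis and nucleolar genes encode the proteins that transcribe, modify, cut and fold ribosomal RNA and assemble it with ribosomal proteins in the nucleolus. A list of 40 such mouse genes was compared between gallbladders of leptin-treated and saline-treated obese mice, using every probe set annotated with 1 gene symbol that is on the list. Of the 40 genes, 38 had such a probe set (80 probe sets in all, of 18193 genes in the table), and 37 were bright enough to be tested among 11719 genes. Npm3 and Mrto4 had no probe set under a single symbol, so no signal of theirs was analysed here. The genes were chosen by role with the leptin and saline results of these same arrays already known, so the differences below describe the genes and are no independent support for a shared direction.

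All animals were female B6.V-Lep ob mice, which carry the obese mutation of the leptin gene in every tissue and make no functional leptin. The leptin group received 5 µg of leptin per g of body weight into the peritoneum daily for 4 weeks, and the saline group received saline for the same time. Each group held 12 of the 24 mice, all 12 weeks old and fasted overnight when the gallbladders were taken. RNA came from pools of 3 gallbladders, giving leptin pools 5 to 8 and saline pools 1 to 4, and each pool was read on 1 Affymetrix Mouse Genome 430 2.0 array. A pool is 1 sample here, so spread between single animals was not measured, and no lean group was analysed here.

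Ribosomal RNA is transcribed by RNA polymerase I inside the nucleolus. Small nucleolar ribonucleoproteins (snoRNPs) then guide its chemical modification, those of the box C/D class by ribose methylation and those of the box H/ACA class by conversion of uridine to pseudouridine. Assembly factors cut and fold the RNA and load ribosomal proteins onto the small and the large subunit, and the output of the whole pathway is known to follow cell growth and division, with the transcription factor Myc as a well-known activator of many of its genes.

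The values are MAS 5.0 signals, a linear brightness for which every array was scaled to the same trimmed mean. The share of probe sets above the background signal of 46.0, set by bacterial control probe sets, was 68.4% to 71.0% in the leptin arrays and 63.3% to 66.9% in the saline arrays. The actin 3' to 5' signal ratio, a sign of RNA integrity and labelling, was 1.674 to 2.172 in the leptin arrays and 1.498 to 1.683 in the saline arrays. The same ratio for GAPDH was 0.791 to 0.846 in the leptin arrays and 0.774 to 0.87 in the saline arrays, with overlap. All 9 gallbladder epithelium markers lay above that background in every pool, and so did all 7 hepatocyte markers, whose summed signal was 82644 to 100085 in the leptin pools and 65200 to 102737 in the saline pools.

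Leptin-treated gallbladders had lower signals of 11 of the 37 tested ribosome biogenesis genes (29.7%) and higher signals of none. A gene was called when limma's Benjamini-Hochberg adjusted p, taken over all tested probe sets, was at or under 0.05. At an unadjusted p under 0.05 on the brightest probe set of each gene, limma counted 20 of the 37 as lower and 0 as higher. Among all genes 12.8% were lower at that level. Over all 11719 genes tested, 3.98% were called lower with leptin and 4.29% higher. The 11 genes were Nop58, Nolc1, Nhp2, Gnl3, Utp18, Wdr43, Rrs1, Ebna1bp2, Nop56, Mybbp1a and Ncl, with log2 fold changes (leptin over saline) from -1.31 to -0.47. The other 26 had log2 fold changes from -0.78 to 0.06. Counting direction alone, 35 of the 37 had a negative fold change and 2 a positive one, against 47.4% negative among all genes, and the median log2 fold change was -0.39 against 0.02. In 13 of the 37 genes (35.1%) all 4 leptin pools lay below all 4 saline pools, as they did in 8.58% of all genes. In bulk RNA, fewer cells of a type and less RNA per cell cannot be told apart. With the actin ratio added to the model only Nop58 of the 11 passed, and 1.9% of all genes were then called lower. Apart from leptin pool 7, at 1.674, every leptin array had a higher actin ratio than the highest saline array, at 1.683. Treatment and this ratio therefore cannot be told apart in that fit. With each array centred on its median signal 23 genes passed, and 18.1% of all genes were then called lower. Of all genes called under median centring 89.3% were lower, against 48.1% as analysed here.

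**Figure D1:**
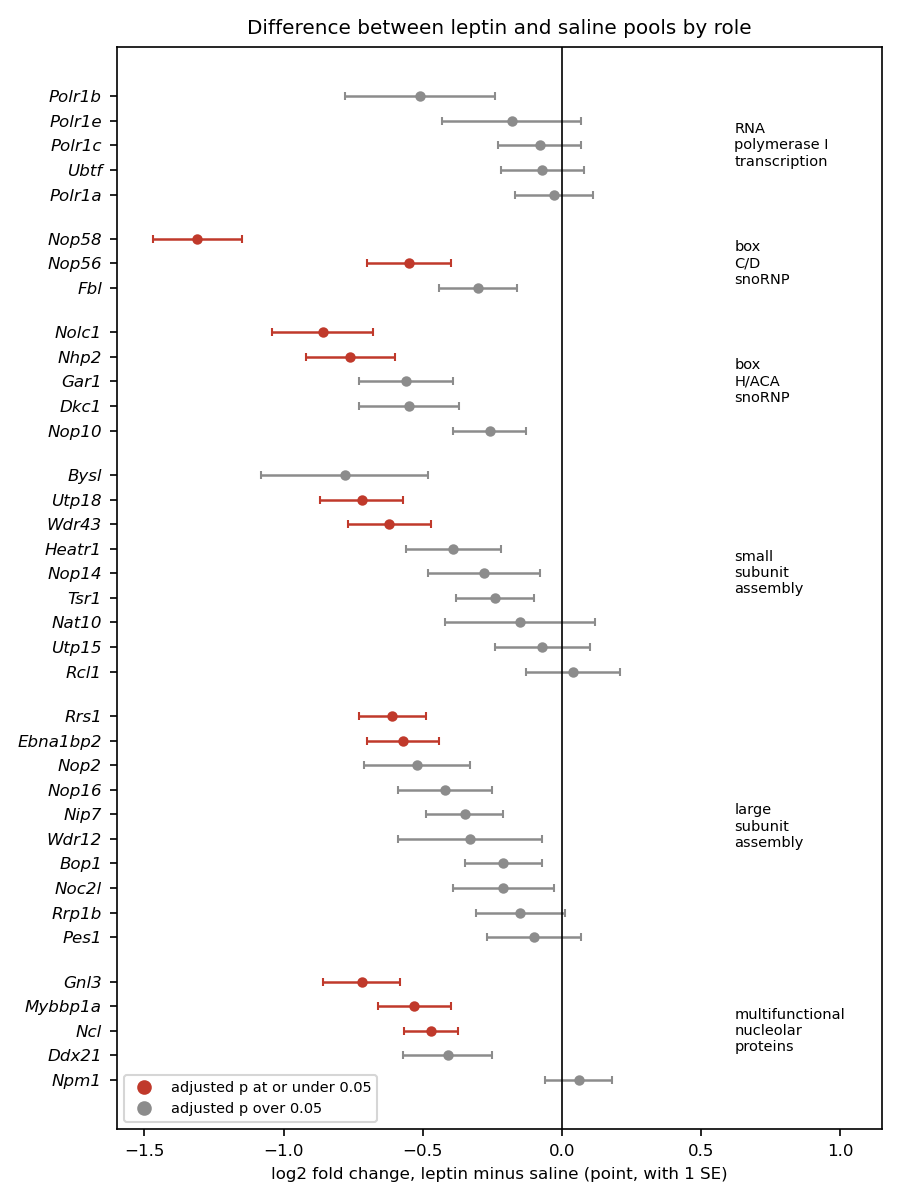
The log2 fold change (leptin over saline) of each of the 37 tested genes with its standard error, grouped by role. Red points mark the 11 genes called lower, which run from -1.31 for Nop58 to -0.47 for Ncl, and no gene was called higher.

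Sequence at the gene starts is shown because the transcription factor Myc, which fell with leptin, is known to bind the E-box CACGTG. RefSeq windows of 250 bases before to 50 bases after a gene start (GRCm38.p6) were at hand for 36 of the 40 listed genes, in 45 windows. These include Npm3 and Mrto4, which have no signal here, and none belongs to Rrs1, which was called. CACGTG, which is its own reverse complement and so reads the same on both strands, lay in 6 of these 45 windows (13.3%) and in 3 of the 10 windows of the genes called lower (30%), against 7.15% of all 32851 windows. The looser pattern CANNTG, which contains CACGTG, lay in 28 of the 45 windows (62.2%) and in 5 of the 10 of the genes called lower (50%), against 72.3% of all windows. The 3 called genes with a CACGTG are printed here with the motif in capitals, followed by the window of Nop58, the gene with the strongest decrease, which holds none. Utp18 lies at chr11:93885717-93886016 on the minus strand, Wdr43 at chr17:71615965-71616264, Mybbp1a at chr11:72441077-72441376 and Nop58 at chr1:59684756-59685055, these 3 on the plus strand. All are written 5′ to 3′ in the direction of transcription.
Utp18: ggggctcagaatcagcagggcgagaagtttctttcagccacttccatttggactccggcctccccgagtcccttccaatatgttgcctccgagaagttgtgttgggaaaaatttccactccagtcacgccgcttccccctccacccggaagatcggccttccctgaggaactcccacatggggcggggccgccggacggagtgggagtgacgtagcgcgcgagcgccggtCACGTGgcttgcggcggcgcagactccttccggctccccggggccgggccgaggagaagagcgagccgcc
Wdr43: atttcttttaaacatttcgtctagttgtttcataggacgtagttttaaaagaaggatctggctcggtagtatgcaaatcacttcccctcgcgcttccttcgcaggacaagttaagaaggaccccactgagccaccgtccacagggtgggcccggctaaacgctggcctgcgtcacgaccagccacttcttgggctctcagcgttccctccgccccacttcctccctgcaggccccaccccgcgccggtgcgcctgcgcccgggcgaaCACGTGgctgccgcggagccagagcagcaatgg
Mybbp1a: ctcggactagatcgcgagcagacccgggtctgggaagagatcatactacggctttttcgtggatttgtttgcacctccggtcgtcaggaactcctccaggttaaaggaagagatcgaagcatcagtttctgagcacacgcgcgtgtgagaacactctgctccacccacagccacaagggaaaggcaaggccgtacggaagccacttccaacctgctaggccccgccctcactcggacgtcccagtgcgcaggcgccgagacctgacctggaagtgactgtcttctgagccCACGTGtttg
Nop58: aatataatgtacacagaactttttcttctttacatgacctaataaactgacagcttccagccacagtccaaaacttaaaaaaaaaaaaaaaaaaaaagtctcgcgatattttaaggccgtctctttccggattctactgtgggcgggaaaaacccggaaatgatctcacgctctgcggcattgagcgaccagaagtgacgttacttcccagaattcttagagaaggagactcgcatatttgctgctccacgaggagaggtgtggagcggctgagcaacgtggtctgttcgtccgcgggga
The motif starts at position 231 of the Utp18 window, 268 of the Wdr43 window and 291 of the Mybbp1a window, counted from 1. Nop2, Pes1 and Tsr1 also hold 1 CACGTG each and were not called. A match says only that these letters are present.

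Read on the brightest probe set of each gene, genes of RNA polymerase I transcription showed no call among 5 tested. None of these brightest probe sets reached an unadjusted p under 0.05 in limma, and the median log2 fold change was -0.08. Polr1a, the largest catalytic subunit, had signals of 437.5, 522, 516 and 455 in the leptin pools, against 583, 425, 436 and 533 in the saline pools (-0.03 ± 0.14, log2 fold change ± SE, limma adjusted p = 0.933). Polr1b, the second largest subunit, had 168, 74.4, 197 and 136 in the leptin pools, against 203, 177, 159.5 and 258 in the saline pools (-0.51 ± 0.27, adjusted p = 0.279). Ubtf, which binds ribosomal DNA and keeps it open, had 762, 615.5, 871 and 588 in the leptin pools, against 819, 629, 788 and 710.5 in the saline pools (-0.07 ± 0.15, adjusted p = 0.83). The groups overlapped for all 3, and leptin pool 6 held the lowest Polr1b signal. Polr1c, a subunit shared with RNA polymerase III, had 704, 606, 506 and 596 in the leptin pools, against 579, 549, 636 and 795 in the saline pools (-0.08 ± 0.15), while its dimmer probe set had 567, 503, 524 and 561 in the leptin pools, against 339.6, 447, 320.3 and 428 in the saline pools (0.49 ± 0.14, adjusted p = 0.053). On that dimmer Polr1c probe set every leptin pool lay above every saline pool. Polr1e, another subunit, had a log2 fold change of -0.18 ± 0.25 with overlapping groups.

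Box C/D snoRNP genes had 2 of 3 members called lower, with a median log2 fold change of -0.55. Nop58, a core protein of these particles, had signals of 255, 256, 332 and 302.5 in the leptin pools, against 613, 626, 742 and 932 in the saline pools. Every leptin pool lay below every saline pool by a wide gap, and the means were 286 ± 37.7 in the leptin pools, against 728 ± 148 in the saline pools (SD, n = 4 each). Its log2 fold change was -1.31 ± 0.16 (SE, limma adjusted p = 3.8e-04), 59.7% lower in leptin-treated gallbladders. Nop56, the partner of Nop58 in the same particle, had 249, 279.6, 346 and 312 in the leptin pools, against 378, 436, 463 and 474 in the saline pools, with no overlap and a log2 fold change of -0.55 ± 0.15 (adjusted p = 0.0386). Fbl, the methyltransferase, had 636, 690.5, 787 and 653 in the leptin pools, against 811, 829, 727.5 and 1061 in the saline pools, and its groups overlapped through saline pool 3 and leptin pool 7 (-0.30 ± 0.14, adjusted p = 0.21). Second probe sets of Nop56 (-0.41 ± 0.23, limma adjusted p = 0.323) and Fbl (-0.04 ± 0.14, adjusted p = 0.881) were not called, and both overlapped between groups. The Nop56 call was lost without leptin pool 5, 6 or 8 or saline pool 2, 3 or 4 (highest adjusted p = 0.0962). Nop58 passed in all 8 fits that left out 1 pool.

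**Figure D2:**
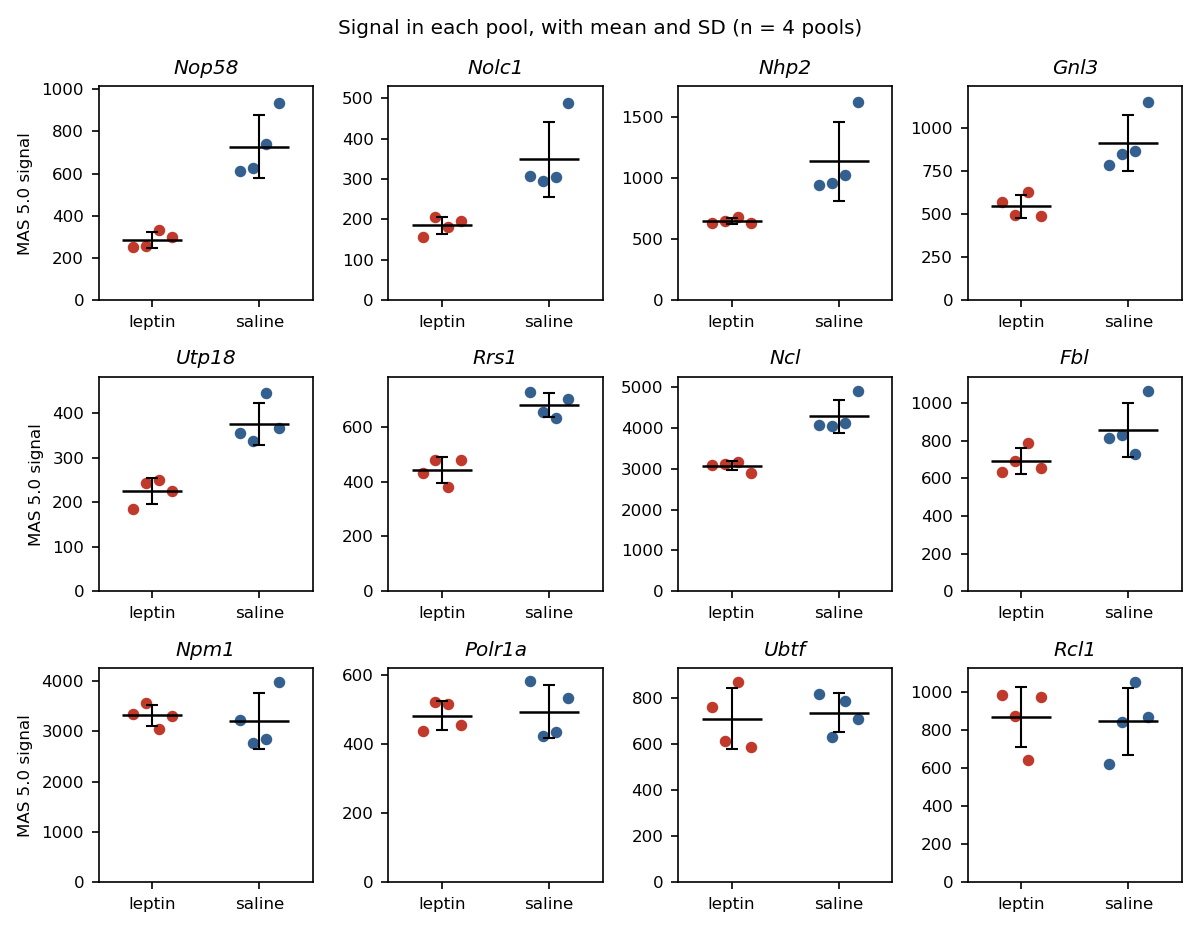
MAS 5.0 signal of selected genes in each pool, leptin pools left and saline pools right, with a line at the group mean and bars of 1 SD. The 4 leptin signals of Nop58 lie at 255 to 332 and the 4 saline signals at 613 to 932.

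Box H/ACA snoRNP genes had 2 of 5 members called lower, with a median log2 fold change of -0.56. Nolc1, a nucleolar chaperone that carries snoRNPs, had signals of 157, 207, 180.4 and 196 in the leptin pools, against 307.5, 296, 304 and 488 in the saline pools (-0.86 ± 0.18, adjusted p = 0.0149). Nhp2, a core protein of the particle, had 631, 647, 682 and 636 in the leptin pools, against 944, 961, 1023 and 1620.0 in the saline pools (-0.76 ± 0.16, adjusted p = 0.014). For both, the 4 leptin pools lay below the 4 saline pools and saline pool 4 lay well above the other saline pools. The 2 dimmer Nolc1 probe sets were not called, with log2 fold changes of -0.36 ± 0.2 (adjusted p = 0.296) and -0.38 ± 0.25 (adjusted p = 0.4). Dkc1, the pseudouridine synthase, had 326, 363, 486 and 287.5 in the leptin pools, against 599.6, 439.9, 479 and 612 in the saline pools, where leptin pool 7 exceeded saline pools 2 and 3 (-0.55 ± 0.18, adjusted p = 0.0817). Gar1, another core protein, did not pass either (-0.56 ± 0.17, adjusted p = 0.0718), with leptin pool 7 above saline pool 2. Without leptin pool 7, Dkc1 and Gar1 were both called lower. Nop10, the smallest core protein, had a log2 fold change of -0.26 ± 0.13.

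Small subunit assembly genes had 2 of 9 tested members called lower, with a median log2 fold change of -0.28. Utp18, a component of the small subunit processome, had signals of 184, 243.5, 249 and 226 in the leptin pools, against 355, 339, 446 and 368 in the saline pools (-0.72 ± 0.15, adjusted p = 0.0144). Wdr43, another component of the same complex, had 307, 393, 479 and 395 in the leptin pools, against 635, 567, 543 and 677 in the saline pools (-0.62 ± 0.15, adjusted p = 0.0266). Neither had any overlap between groups. Wdr43 lost its call without leptin pool 5, 6 or 8 or saline pool 1, 2 or 4 (highest adjusted p = 0.077). Rcl1, a protein of pre-ribosomal RNA cleavage, had 984, 876, 646 and 973 in the leptin pools, against 621, 846, 1052 and 872 in the saline pools, with overlapping groups and a log2 fold change of 0.04 ± 0.17 (adjusted p = 0.914). Its sign turned to -0.21 under median centring and to -0.36 with the actin ratio in the model. Heatr1, a large processome protein, had 418, 342, 295 and 285 in the leptin pools, against 383, 381, 549.9 and 455 in the saline pools (-0.39 ± 0.17), and its second probe set had 166.5, 131, 182 and 146.5 in the leptin pools, against 161, 125, 144 and 130.5 in the saline pools (0.15 ± 0.19). These signals overlapped between groups on both probe sets. Bysl, a factor of late small subunit maturation, had 169, 105, 209 and 159 in the leptin pools, against 152, 353, 463 and 225 in the saline pools (-0.78 ± 0.3, adjusted p = 0.143), but its second probe set had 166, 114, 148 and 80.2 in the leptin pools, against 72.3, 30.3, 145 and 109 in the saline pools (0.60 ± 0.39). Bysl was called lower in the fit without saline pool 1. Utp15, Nat10, Tsr1 and Nop14 had log2 fold changes of -0.07, -0.15, -0.24 and -0.28, and none passed. On the second Utp15 probe set the value was -0.63 ± 0.2 (limma adjusted p = 0.0768). It was not called, though every leptin pool lay below every saline pool. Rrp9 was too dim to be tested, at 19.5, 44.2, 60.9 and 38.1 in the leptin pools, against 17.5, 15.6, 17.0 and 14.5 in the saline pools, where leptin pool 7 alone exceeded the background of 46.0.

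Large subunit assembly genes had 2 of 10 members called lower, with a median log2 fold change of -0.34. Rrs1, an early assembly factor known in yeast, had signals of 431, 478, 381 and 479.8 in the leptin pools, against 726, 652, 630.1 and 700.5 in the saline pools (-0.61 ± 0.12, adjusted p = 0.012). Ebna1bp2, whose yeast counterpart works with the yeast Rrs1, had 367, 393, 411 and 439.8 in the leptin pools, against 617, 513, 615 and 664 in the saline pools (-0.57 ± 0.13, adjusted p = 0.0201). On these probe sets the pools of both genes were fully apart. On the second tested Ebna1bp2 probe set the log2 difference was -0.04 ± 0.18 (limma adjusted p = 0.922). Ebna1bp2 was not called without leptin pool 5, leptin pool 6 or saline pool 4 (highest adjusted p = 0.0599). Nip7 had 347, 289.7, 369 and 319 in the leptin pools, against 395, 377, 418 and 519 in the saline pools, and Nop16 likewise had every leptin pool below every saline pool, but neither passed (adjusted p = 0.162 for Nip7 and 0.145 for Nop16). The second probe set of Nip7 had 189, 174, 157 and 156 in the leptin pools, against 150.2, 151, 248 and 131 in the saline pools (0.03 ± 0.21), with overlap. Pes1, which acts with Bop1 and Wdr12 in the PeBoW complex, had 213, 245, 297 and 245 in the leptin pools, against 355, 242, 235 and 252.5 in the saline pools (-0.10 ± 0.17). Its dimmer probe set had 155.5, 99.2, 129 and 166 in the leptin pools, against 70.6, 53.8, 79.2 and 103 in the saline pools (0.79 ± 0.26, adjusted p = 0.0888), so the 2 probe sets pointed in opposite directions. Bop1 and Wdr12 had log2 fold changes of -0.21 and -0.33. Noc2l had 255, 369, 221 and 211 in the leptin pools, against 308, 278, 309 and 305 in the saline pools (-0.21 ± 0.18) on its brightest probe set and 141, 205.5, 131 and 177 in the leptin pools, against 202, 156, 133 and 102 in the saline pools (0.15 ± 0.23) on the other. Nop2, a methyltransferase of large subunit RNA, and Rrp1b had log2 fold changes of -0.52 and -0.15 without a call.

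Multifunctional nucleolar proteins had 3 of 5 members called lower, with a median log2 fold change of -0.47. Gnl3, the GTPase nucleostemin, had signals of 571, 498, 629.8 and 488 in the leptin pools, against 787, 848, 868 and 1152 in the saline pools (-0.72 ± 0.14, adjusted p = 0.0103). Mybbp1a, a Myb-binding protein of the nucleolus, had 581, 518, 605 and 692.5 in the leptin pools, against 889.7, 821, 746.5 and 1009 in the saline pools (-0.53 ± 0.13, adjusted p = 0.0338). Ncl, nucleolin, had 3095.5, 3122.5, 3159 and 2900.5 in the leptin pools, against 4072, 4038, 4109 and 4887 in the saline pools (-0.47 ± 0.096, adjusted p = 0.0112). The groups did not overlap for any of the 3. Saline pool 4 was the highest pool for all 3. Mybbp1a was lost as a call without leptin pool 5, 6 or 7 or saline pool 1, 2 or 4 (highest adjusted p = 0.101) and under quantile or cyclic loess scaling, and Ncl under cyclic loess scaling. The 4 dimmer Ncl probe sets had log2 fold changes of -0.25, -0.14, 0.13 and -0.12, none called. The second Mybbp1a probe set was not called either (-0.51 ± 0.16, limma adjusted p = 0.0819), though its groups did not overlap. Npm1, nucleophosmin, had 3344, 3550.0, 3050.3 and 3299 in the leptin pools, against 3216, 2767, 2836 and 3982.5 in the saline pools, with overlapping groups and a log2 fold change of 0.06 ± 0.12 (adjusted p = 0.799). Under median centring the Npm1 value was -0.19. Ddx21, an RNA helicase, had a log2 fold change of -0.41 ± 0.16 and was called, among the settings run, in the fit without leptin pool 7 and under median centring.

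Several tested probe sets were present for 24 of the 37 genes, and in 9 of these the probe sets differed in sign: Bysl, Heatr1, Ncl, Nip7, Noc2l, Pes1, Polr1a, Polr1c and Ubtf. For Polr1a the second probe set had 142, 158, 179 and 137 in the leptin pools, against 114, 119.7, 150.1 and 122 in the saline pools (0.27 ± 0.19), and for Ubtf it had 51.2, 152.5, 135 and 143 in the leptin pools, against 89.6, 75.4, 75.6 and 103 in the saline pools (0.36 ± 0.32). Neither was called. Of the 68 tested probe sets of the list, 13 were called lower and none higher, against 3.39% called lower among all 22519. Nhp2 and Rrs1 were called on both of their probe sets. The brightest probe sets of Nhp2, Gar1, Wdr43, Tsr1 and Polr1c are of the s type and those of Rrs1 and Polr1e of the x type, which the array maker gives to probe sets that can also bind related transcripts. The second probe set of Wdr43 had 447, 357.5, 523 and 406 in the leptin pools, against 586, 502, 532 and 551 in the saline pools and a log2 fold change of -0.33 ± 0.14 (adjusted p = 0.173), with overlap between leptin pool 7 and saline pool 2.

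**Figure D3:**
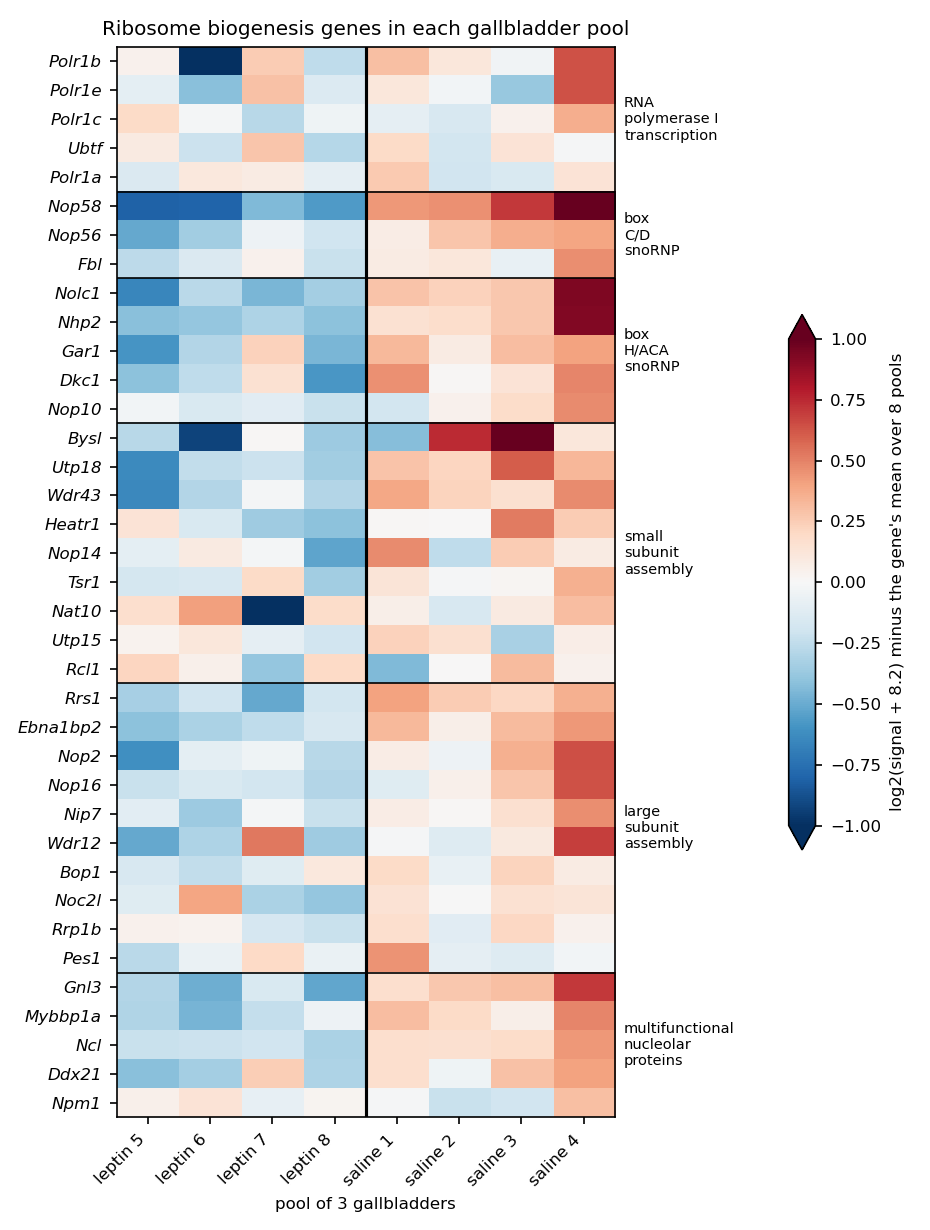
Log2 signal of each of the 37 genes in each pool, relative to the mean of the gene over all 8 pools, with leptin pools left and saline pools right and colours held at 1 beyond that size. Saline pool 4 is the highest saline pool in 24 of the 37 genes and leptin pool 7 the highest leptin pool in 20.

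Within each treatment the pools differed in the same direction for many of the genes. The mean of the 37 genes, each centred on its own mean log2 signal, was -0.24, -0.22, -0.10 and -0.25 in leptin pools 5 to 8 and 0.15, 0.06, 0.19 and 0.40 in saline pools 1 to 4. The groups did not overlap, a direction that goes with how the genes were chosen and is no sign of stability. Saline pool 4 was the highest saline pool in 24 of the 37 genes (64.9%), against 26% of all genes, and saline pool 2 the lowest in 21 (56.8%), against 20.1%. Leptin pool 7 was the highest leptin pool in 20 (54.1%), against 28.2%. Without saline pool 4 the median log2 fold change was -0.30 and 7 genes were called. Over all genes 2.21% were then called lower, against 3.98% with every pool. Without both saline pool 4 and leptin pool 7 the median was -0.34, with 7 genes called and 2.23% of all genes called lower. Nop56, Nolc1, Ebna1bp2, Rrs1 and Mybbp1a were not among these 7.

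Lists of further genes of the pathway were set beside these genes, with limma log2 fold changes (± SE where given) in parentheses. Over all tested genes, 3.98% were called lower as analysed here, 18.1% under median centring and 1.9% with the actin ratio. Other large subunit assembly factors had 6 of 41 tested genes called lower and none higher, among them Ppan (-1.04 ± 0.28), Gtpbp4 (-0.72 ± 0.15), Eif6, the factor that keeps the large subunit from joining the small one (-0.69 ± 0.1), and Nifk (-0.68 ± 0.13). Other small subunit assembly factors had 3 of 40 called lower, namely Riok2 (-0.59), Utp4 (-0.54) and Pno1 (-0.54), and the RNA exosome 1 of 13, its nuclease Dis3. Dis3 had signals of 229.6, 158, 222 and 166 in the leptin pools, against 395, 336, 402 and 433.5 in the saline pools, with no overlap (adjusted p = 0.00348). Eif6 had signals of 1541, 1401, 1498 and 1514 in the leptin pools, against 2718, 2263.5, 2255.5 and 2385.5 in the saline pools, and its groups were wide apart. The count for the large subunit factors was 3 without leptin pool 5, saline pool 1 or saline pool 4, 1 with the actin ratio and 12 under median centring. For the small subunit factors it was 0 without leptin pool 6, leptin pool 8 or saline pool 4 and with the actin ratio, 1 without saline pool 1 or 2, under cyclic loess scaling or with no filter, and 13 under median centring. For the exosome it was 2 without saline pool 3 and under quantile or cyclic loess scaling, and 7 under median centring. The median log2 fold changes of these lists were -0.14 for the large subunit factors, -0.18 for the small subunit factors and -0.30 for the exosome. Other RNA polymerase I factors had no call among 8 and RNA polymerase III subunits none among 13, with medians of -0.04 and -0.09. At an unadjusted p under 0.05, limma had 1 lower gene among the other polymerase I factors and 0 among the polymerase III subunits, and under median centring 1 gene of each list was called lower.

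Genes of the ribosome itself and of translation were counted in the same way. The shares of all genes called lower were again 3.98% as analysed here, 18.1% under median centring and 1.9% with the actin ratio. Cytosolic ribosomal proteins had no call among 41 tested genes and 2 lower ones at an unadjusted p under 0.05 in limma, with a median log2 fold change of -0.04. Of 78 such genes listed, 43 had a probe set under a single symbol, so this covers part of them. Under median centring 16 of them were called lower, and without saline pool 1 there was 1. The smallest p among them belonged to Rps19 (-0.33 ± 0.11, adjusted p = 0.0876). Mitochondrial ribosomal proteins had 3 of 75 called lower, near the 3.98% of all genes, namely Mrps18b (-0.79), Mrpl16 (-0.52) and Mrps10 (-0.46). That count was 1 without leptin pool 8, saline pool 2 or saline pool 4, under quantile or cyclic loess scaling and with the actin ratio, and 23 under median centring. Genes listed as translation initiation and elongation factors had 7 of 36 called lower and 1 higher, Eif4a2 (0.53). Among the lower ones were Eif2b3 (-0.90), Eef1e1 (-0.85, listed here by its name), Eif4a1 (-0.62) and Eif1a (-0.51). The count of lower ones was 4 without leptin pool 5, 3 without saline pool 2 or 3, and 2 without leptin pool 6, leptin pool 8 or saline pool 4. It was 3 under quantile or cyclic loess scaling or with no filter, 0 with the actin ratio and 18 under median centring. No translation factor was called higher with the actin ratio or under median centring. Cytosolic aminoacyl-tRNA synthetases had no call among 21 (3 lower at an unadjusted p under 0.05) and purine and pyrimidine synthesis none among 22 (5 lower). Nme2 and Gmps had the smallest p of the second list, with log2 fold changes of -0.28 and -0.36. Under median centring 7 genes of each of these 2 lists were called lower, and without leptin pool 7 there were 2 of purine and pyrimidine synthesis, and 1 without saline pool 1 or with the actin ratio. The difference between these lists was not tested.

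**Figure D4:**
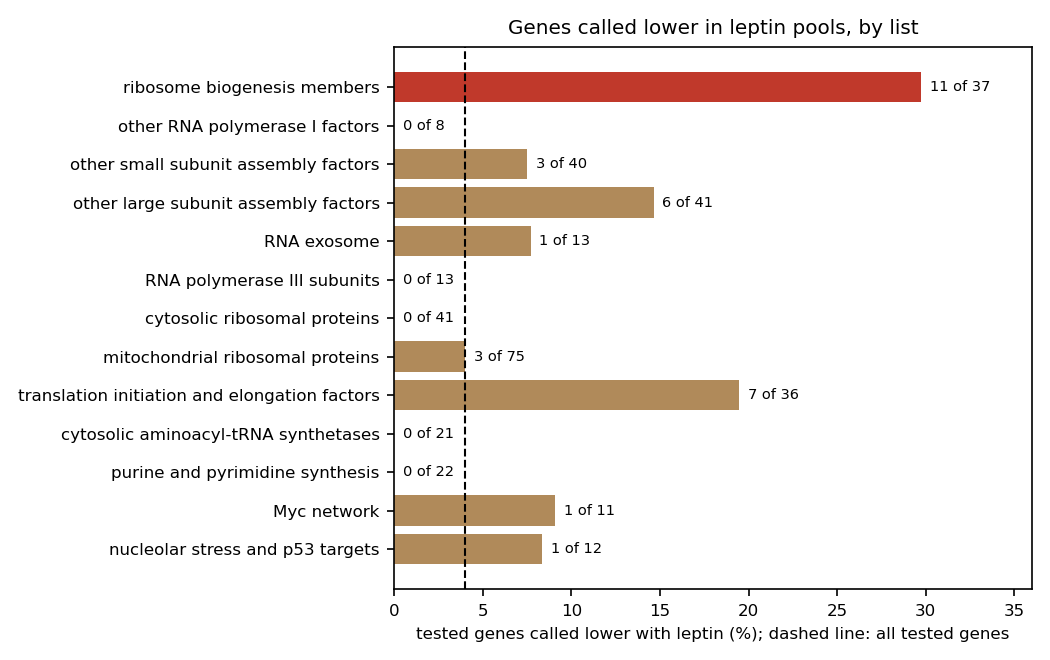
Percentage of tested genes called lower with leptin in each list of pathway genes. The dashed line marks 3.98%, the share among all 11719 genes.

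Myc, the transcription factor known to activate ribosome biogenesis genes, had signals of 195, 159, 112 and 159 in the leptin pools, against 612.5, 580.5, 684 and 712.5 in the saline pools. All 4 leptin pools were far below all 4 saline pools, and the log2 fold change was -2.02 ± 0.17 (SE, limma adjusted p = 1.6e-05). It was the only call among the 11 tested genes of the Myc network list, whose median was 0.04. Whether Myc bears on the other genes was not tested.

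Markers of other cells and of cell division moved along the same comparison. Over all genes tested, 3.98% were called lower and 4.29% higher. Proliferation genes had 7 of 11 called lower, with a median of -1.19, Mcm5 at -2.21 ± 0.25, Mcm2 at -1.89 ± 0.28 and Rrm2 at -1.74 ± 0.15. The summed signal of the 14 such genes on the array was 3598 to 4460 in the leptin pools and 6409 to 13069 in the saline pools. The mean centred log2 signal of the 11 tested ones was highest in saline pool 4. Epithelial markers had 3 of 9 called lower, Krt7 (-0.96), Krt8 (-0.58) and Krt18 (-0.35), with sums of 34216 to 38340 in the leptin pools and 40589 to 50333 in the saline pools. Macrophage markers had 7 of 8 called higher, with sums of 8521 to 9412 in the leptin pools and 3834 to 4927 in the saline pools. Of 7 B and plasma cell markers on the array, 5 were tested and all 5 called higher (13345 to 21361 in the leptin pools, 803 to 927 in the saline pools). Ighm alone had 9752 to 14058 in the leptin pools. Of 7 neutrophil markers on the array, 4 were tested and all 4 called higher (3706 to 6470 in the leptin pools, 607 to 1113 in the saline pools). Each sum was taken over all markers of a list on the array, tested or not. Because the brightness filter averaged all 8 pools, markers dim in the saline pools could be tested through their leptin signals. Jchain had 45.7 to 82.3 in the saline pools and 2044.5 to 5624.6 in the leptin pools. With no filter, 7 B and plasma cell markers and 4 neutrophil markers were called higher, beside 384 of all 18193 genes. No macrophage or B cell marker lay under the background in all pools, and of the 7 neutrophil markers on the array only Cxcr2 did. Of the remaining lists, smooth muscle had 1 of 8 called lower (Actg2, -0.58) and 1 higher (Smtn, 0.65), fibroblasts 1 of 7 higher (Dpt, 0.63), adipocytes 1 of 5 lower (Cidec, -2.03) and hepatocytes 1 of 7 higher (Apoa1, 0.70). Endothelium had no call among 6 and T and NK cells none among 2, with 1 and 2 genes higher at an unadjusted p under 0.05 in limma. With the actin ratio, 2 proliferation genes and 0 epithelial markers were called lower and 3 macrophage markers higher, while the counts called higher were 5 to 7 for B and plasma cells and 3 to 4 for neutrophils over the settings run. The Actg2 call was lost without leptin pool 5, 6 or 8 or saline pool 2 or 4. Actg2 was also not called under quantile or cyclic loess scaling, with no filter or with the actin ratio. The Apoa1 call was lost without leptin pool 5, 6 or 8 or saline pool 1 or 4. Apoa1 was also not called under median centring, with no filter or with the actin ratio. Neither Smtn nor Dpt was called under median centring or with the actin ratio. The part of these changes in the lower ribosome biogenesis signals was not tested.

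**Figure D5:**
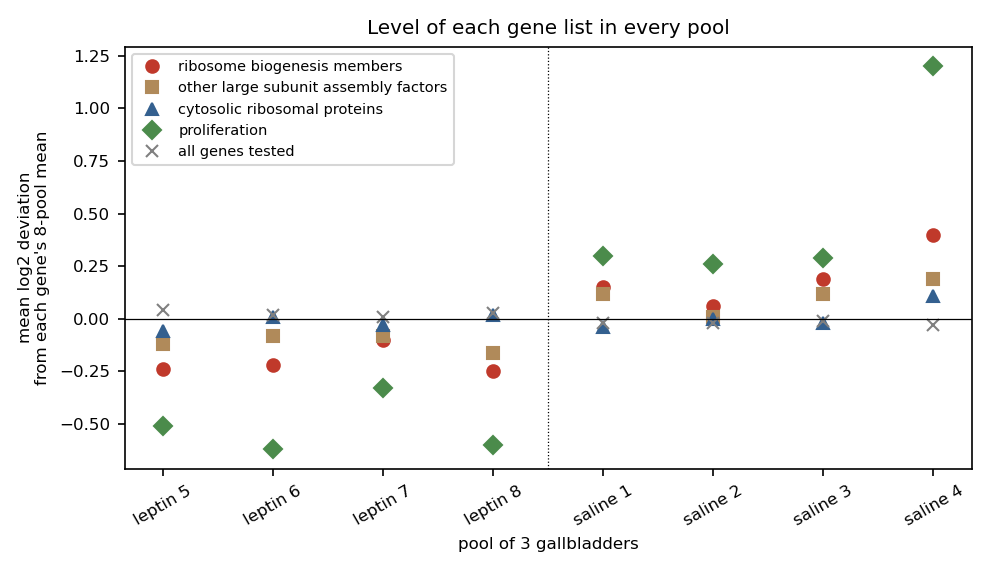
Mean centred log2 signal of each list in each pool, leptin pools left and saline pools right. The 37 ribosome biogenesis genes lie at -0.25 to -0.10 in the leptin pools and at 0.06 to 0.40 in the saline pools.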

How the data were processed

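Gallbladder RNA of 4 leptin and 4 saline pools was measured on 1-colour arrays. The authors deposited linear intensities, 1 MAS 5.0 signal per probe set and array, with MAS5 named per the submitters' processing notes. The sources used here give neither its version nor detection calls or dates of scanning. Each array was scaled to its 2% trimmed mean, and log2(signal + 8.2) was used, where 8.2 is the 10th percentile, which shrinks the fold changes of dim genes. After removal of 64 control probe sets, the 22519 of 45101 probe sets at or above the median brightness were tested with limma 3.58.1 in R 4.3.3 (lmFit, eBayes with trend, two-sided, Benjamini-Hochberg over all tested probe sets, threshold 0.05). For each gene the brightest probe set with a single symbol was used (34958 probe sets had 1 symbol, 932 several and 9211 none; 34754 were updated to GRCm38.p6 names). The background of 46.0 is the 95th percentile of 27 bacterial control probe sets. Pools with separate animals are replicates. The p-values set each group difference against the spread between pools, which limma moderates across probe sets, and the number of arrays limits precision. Values in every pool are given for called members whose groups do not overlap and for Ncl, Npm1, Fbl, Dkc1, Polr1a, Polr1b and Ubtf. They are also given for members with a positive fold change and for members whose probe sets differ in sign. Up to 4 genes of each further list were named in each direction by largest called change or, with none called, by smallest p. Members, lists and alternatives were chosen with earlier results of these data known. The tests were also run on simulated data with noise drawn separately for each probe set. Shifts shared by many genes of a pool were not simulated, so that check does not cover them.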

Additional observations from a re-analysis of the deposited data

Results flagged for a closer look

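In groups of 4 pools, a pool was singled out when its gap to the nearest other pool, divided by the range of the group, both taken on log2(signal + 8.2), was above Dixon's 95% critical value. Chance does this in about 1 in 20 groups, and 6 of 76 groups were singled out. Saline pool 4 stood high for Nhp2 (ratio 0.851 on that scale, linear signal 1620.0 against 944.1 to 1023.2 in the other saline pools), for Nolc1 (0.924, 488.0 against 295.9 to 307.5) and for Ncl (0.909, 4886.9 against 4038.0 to 4109.0). Saline pool 2 stood low for Noc2l (0.881, 277.7 against 305.0 to 308.9). Leptin pool 7 stood low for Nat10 (0.835, 95.9 against 234.3 to 278.4 in the other leptin pools) and high for Ddx21 (0.831, 650.8 against 406.4 to 440.2).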

How the results depend on the processing

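As analysed here, 1561 probe sets were called, 11 of the 37 genes were called lower, and the median log2 fold change of the genes was -0.39. With the actin ratio in the model these values were 595, 1 and -0.27, and with median centring 3992, 23 and -0.64. With median centring the median of all genes moved to -0.23, since centring shifts all genes of an array alike. Of all genes, 3.98% were called lower as analysed here, 1.9% with the actin ratio and 18.1% with median centring. Averaging all probe sets of a gene gave 7 genes and a median of -0.28, with 3.62% of all genes called lower. The second brightest probe set gave 2 of 24 genes and -0.20, where no share over all genes was computed. A model with no trend gave 7 genes, with 1.94% of all genes called lower. Leaving out saline 4 and leptin 7 together gave 904 probe sets and 7 genes, with 2.23% of all genes called lower. At a threshold of 0.01 there were 507 probe sets and 1 gene, and at 0.10 there were 2763 probe sets. Leaving out each pool gave 884 to 1431 probe sets, 7 to 13 genes and medians of -0.46 to -0.30. In these fits 2.04% to 3.6% of all genes were called lower. Nop58, Nhp2, Nolc1, Utp18, Rrs1, Ncl and Gnl3 passed in all 8 fits. None of the 37 genes was called higher under any setting run, and Nop56 lost its call with no brightness filter. Some values changed sign. With the actin ratio, Wdr12 was 0.20, against -0.33 as analysed here, and Polr1a was 0.21, Polr1e 0.11, Ubtf 0.01, Pes1 0.23 and Rcl1 -0.36, and with median centring Rcl1 was -0.21 and Npm1 -0.19. Leaving out pools gave -0.09 to 0.06 for Polr1a, -0.15 to 0.03 for Polr1c, -0.33 to 0.01 for Polr1e, -0.17 to 0.02 for Ubtf, -0.19 to 0.00 for Utp15, -0.31 to 0.18 for Nat10, -0.10 to 0.18 for Rcl1, -0.19 to 0.03 for Pes1 and 0.00 to 0.17 for Npm1. The causes were not tested. No paired analysis was possible because the pools share no replicate numbers.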

Other observations

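Genes of the p53 response, which is known to react to stress of the nucleolus, moved both ways. Of 12 tested, 1 was called lower and 2 higher, against 3.98% and 4.29% of all genes. Cdkn1a, a cell cycle inhibitor, had signals of 427, 415, 590.5 and 858 in the leptin pools, against 1834, 1361, 1411 and 1012 in the saline pools (-1.31 ± 0.23, limma adjusted p = 0.00456), with no overlap. Mdm4, an inhibitor of p53, had 322, 345, 299 and 280.3 in the leptin pools, against 143, 186, 241 and 120.4 in the saline pools (0.86 ± 0.2, adjusted p = 0.0227), and Bbc3, a promoter of cell death, had 124, 169, 130.5 and 138 in the leptin pools, against 56.7, 75.6, 69.5 and 19.7 in the saline pools (1.33 ± 0.34, adjusted p = 0.036). No p53 gene was called higher without leptin pool 5, leptin pool 6 or saline pool 1 or with the actin ratio, and 1 was without leptin pool 7 or 8 or saline pool 4, under quantile or cyclic loess scaling or with no filter. None was called lower with the actin ratio. The brightness filter averaged all 8 pools, so Bbc3, dim in the saline pools, could be tested through its leptin signals. The helicases Eif4a1 and Eif4a2 also moved in opposite directions. Eif4a1 had 2941, 3252.5, 4019.7 and 2958 in the leptin pools, against 4211, 5242, 4972 and 5846 in the saline pools (-0.62 ± 0.13), and Eif4a2 had 5116, 4486, 4201 and 4097 in the leptin pools, against 3123, 3024, 2958 and 3265 in the saline pools (0.53 ± 0.098). The leptin pools did not overlap the saline pools for either.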
